A study of Homo sapiens with 12 samples.

Results

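The comparison described here set 3 libraries of MDA-MB-468 cells treated with docetaxel for 8 h against 3 libraries of cells given DMSO, the solvent. These are 6 of the 12 libraries of the series, and all genes with enough counts were taken: 17780 of the 58735 gene entries in each count table. MDA-MB-468 is an established triple-negative breast cancer line, labelled WT for genotype in every group. The treated cells received 10 nM docetaxel 24 h after seeding in 10 cm plates, and RNA was collected 8 h later. The other 6 libraries, 3 of docetaxel for 24 h and 3 of 5 µM tazemetostat with 5 µM ipatasertib for 24 h, entered the fit so that all groups shared 1 estimate of spread. The labels do not give the hours, plate or serum of the DMSO libraries, and no vehicle is labelled as collected at 8 h. The protocol names DMSO cells only for the tazemetostat and ipatasertib cultures, which were passaged over 5 days and dosed in 2% FBS. A difference from DMSO reported below can therefore not be told apart from one of plate, serum or days in culture. The labels do not say whether libraries A, B and C of a group are separate cultures. If they are not, the p-values reflect technical spread alone.

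Docetaxel is a taxane: it binds beta-tubulin inside the microtubule and keeps the polymer from shrinking. Cells that enter mitosis with such microtubules cannot satisfy the spindle checkpoint and arrest, and genes of the G2 and M phases are among the readouts of that arrest. Cells outside mitosis meet the drug too, since microtubules carry the motors and vesicles of interphase.

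The 6 libraries compared held 30205713 to 41512254 counts each. Levels are given as CPM, counts scaled by library size with TMM factors applied, and changes as log2 fold changes, docetaxel minus DMSO, with ± an approximate standard error. A gene is called higher or lower where its p from edgeR's quasi-likelihood test, adjusted by Benjamini-Hochberg over all genes, was under 0.05. The line's own markers were present in all 6 libraries: KRT5 at 1624 CPM and EGFR at 3829.9 CPM in DMSO. ESR1 was at 1.86 CPM, ERBB2 at 101 CPM, and PGR did not pass the filter on low counts. Of 24 markers of fibroblasts, immune and endothelial cells, 13 did not pass that filter, PTPRC, DCN and COL3A1 among them. The other 11 summed to between 102 and 105 CPM in DMSO and between 52.8 and 59.1 CPM at 8 h, most of it from CD14 (52.4 and 24.6 CPM) and KDR (22.2 and 13.99 CPM), and their part in the results was not tested. The 3 docetaxel libraries differed from each other more than the DMSO libraries did: the chi-square per degree of freedom of a pair was 3.24 to 3.92 in DMSO and 4.37 to 14.0 at 8 h, the highest for A and B.

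At 8 h, genes for ribosomes, the respiratory chain, the proteasome, splicing and mitosis were mostly higher than in DMSO, and genes for sterol synthesis, amino acid import and MAPK feedback mostly lower. In total, 3994 genes were higher at 8 h (22.5% of those tested), 4415 were lower (24.8%), and 9371 did not pass. Most changes were small. The median absolute log2 fold change of called genes was 0.39, and 6304 of them (74.97%) had moved by less than 1.5-fold. At least 2-fold rises numbered 237 (1.33%) and falls 450 (2.53%). A test against a fold of 1.5 rather than against no change called 158 genes higher and 285 lower. When libraries were scaled to their totals without TMM factors, the median of all genes moved by -0.15 on the log2 scale and the split became 2288 higher and 6784 lower. The 3 libraries of each group did not overlap in 9958 genes.

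How often a gene was called depended on its level. Genes were put into 10 equal groups, or deciles, by mean CPM. In the lowest decile 3.32% were higher and 6.19% lower. In the highest decile, from 120 CPM upwards, 49.0% were higher and 25.3% lower. The share of lower genes peaked in the seventh decile, at 35.9%, where 27.0% were higher. Genes that passed the 2-fold rule were most frequent at low levels: 11.02% in the second decile, against 0.337% in the ninth and 1.41% in the highest. That rule also asks for a call, and the median standard error was 0.534 in the lowest decile and 0.0515 in the highest. In the lowest decile all 59 genes called higher and 109 of the 110 called lower were at least 2-fold. Smaller changes could hardly be called there, so these shares do not compare the size of the response between levels. The highest decile was the one decile with more 2-fold rises than 2-fold falls, 21 against 4. Its largest rises were mostly mitochondrial mRNAs and nuclear pseudogene copies of them, together with CYP1B1, KRT17, KRT6B and ALPP.

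**Figure D1:**
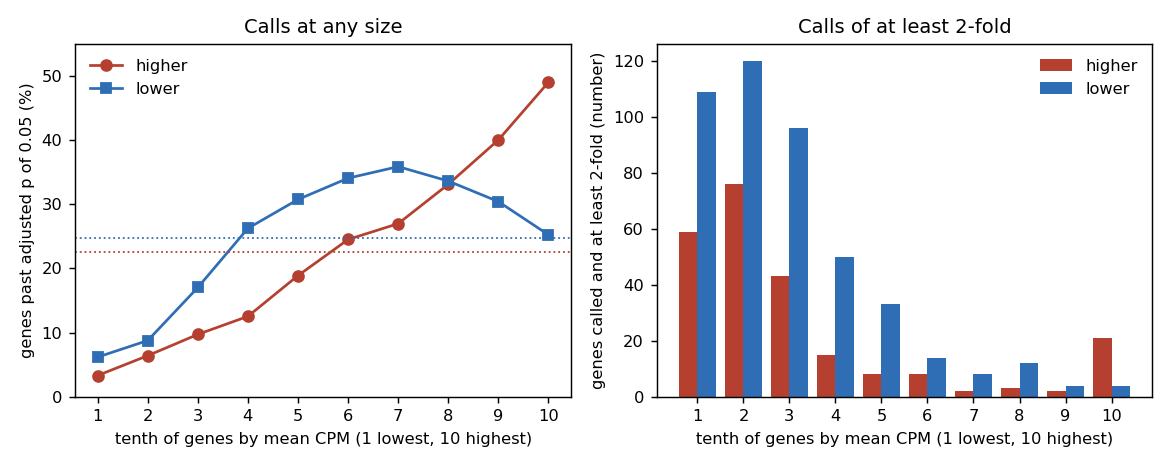
Share of genes called higher (circles) and lower (squares) in each decile of genes by mean CPM over the 6 libraries, in percent, with dotted lines at 22.5% and 24.8% for all genes, and the number of called genes with at least 2-fold change in each decile (bars). Rises grow more frequent with level up to 49.0%. Called genes with at least 2-fold change are most numerous in the 3 lowest deciles, where standard errors are largest and smaller changes are seldom called.

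Calls also followed gene length. Protein-coding genes were put into 5 equal groups by the summed length of their exons. In the shortest, 312 to 2850 bases, 42.4% were higher and 10.7% lower. In the longest, 8238 to 118976 bases, 10.7% were higher and 47.1% lower, and the median log2 fold change fell from 0.19 in the shortest group to -0.19 in the longest. With genes of at least 10 CPM alone, the shares ran from 62.5% higher in the shortest group to 52.8% lower in the longest. The slope was present in each docetaxel library. Relative to the DMSO mean, the median of the shortest group was 0.24, 0.14 and 0.17 at 8 h in A, B and C, and that of the longest was -0.25, -0.12 and -0.16, steepest in A. The DMSO libraries stayed within 0.03 of their own mean. All 6 libraries of the other treatments sloped the same way against the same DMSO libraries, from 0.04 to 0.21 in the shortest group and from -0.07 to -0.19 in the longest. Because a trend with length touches many of the lists below, each gene was also fitted after a smooth offset by exon length in each library, chosen after the trend was seen. That fit called 4337 genes higher and 3806 lower, and its values are called length-adjusted below. The cause of the slope was not tested.

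**Figure D2:**
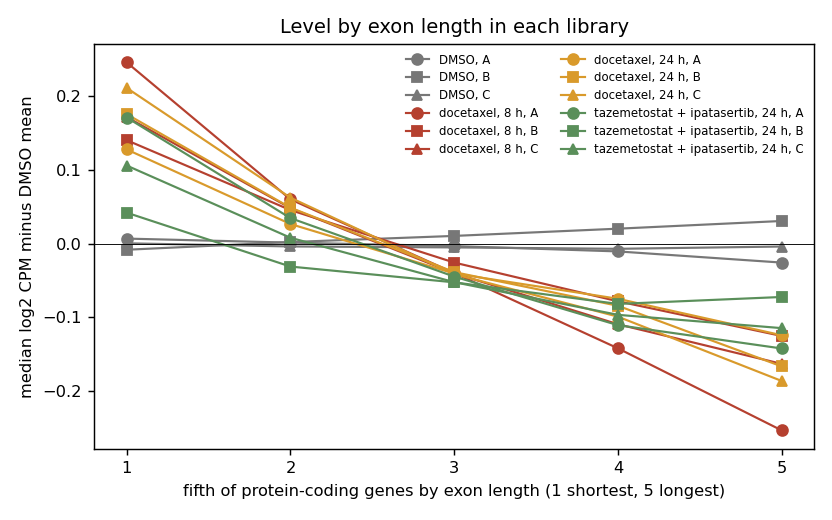
Median log2 CPM minus the DMSO mean (vertical axis) in 5 groups of protein-coding genes from the shortest to the longest exons (horizontal axis), with 1 line per library for all 12 libraries. The docetaxel 8 h libraries go from between 0.14 and 0.24 to between -0.12 and -0.25, and the other treated libraries slope the same way against DMSO.

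Gene types differed too. Of 604 processed pseudogenes, which are short copies of spliced mRNAs and can take reads of their parent genes, 135 were higher and 45 lower, but 72 and 67 after the length adjustment and 77 and 69 with library totals. Among 952 long intergenic RNAs 73 were higher and 133 lower, and among 1059 antisense genes 80 and 98. After the length adjustment these became 64 and 169, and 61 and 139. Since the strand setting of the counts is not given in the sources used here, antisense reads cannot be told apart from those of the overlapping gene. Of 27 small nucleolar RNAs that passed the filter, 12 were higher and none lower (median 0.73), and after the length adjustment 5 were called higher (median 0.39). Because the libraries were poly(A) selected, these counts may not show the mature small RNAs. Named non-coding rises included UNC5B-AS1, 3.27, 2.57 and 3.04 CPM in DMSO and 6.902, 6.37 and 7.31 at 8 h, and DLEU2, 5.14 against 11.2 CPM. Falls included COLCA1, from 5.23, 4.98 and 5.61 to 2.87, 2.44 and 2.46 CPM, and CASC15, from 6.04 to 3.25 CPM.

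Most genes of the ribosome and proteasome were higher. Of 83 cytosolic ribosomal protein genes, 77 were higher and 0 lower, with a median log2 fold change of 0.42 against -0.02 over all genes. Their summed level went from between 50141 and 51750.0 CPM in the DMSO libraries to between 60222 and 72978 CPM at 8 h. RPS10 (0.85 ± 0.20), RPL26 (0.85 ± 0.11) and RPL36A (0.73 ± 0.15) rose most, while RPL3 (0.06 ± 0.06) and RPLP0 (0.09 ± 0.06), both of the large subunit, did not pass. Ribosomal protein genes have many pseudogene copies, so single values are uncertain. Of the 78 mitochondrial ribosomal protein genes 72 were higher and none lower (median 0.40), led by MRPL12 with 40.2, 38.9 and 40.9 CPM in DMSO and 91.6, 67.9 and 74.2 CPM at 8 h. Ribosome biogenesis factors followed, 25 of 30 higher, among them NOP16 (0.78 ± 0.06) and NOP56 (0.71 ± 0.05). The factor MYC itself, 204, 196 and 193 CPM in DMSO and 195, 197 and 175 CPM at 8 h, did not pass. Under the length-adjusted fit the medians were 0.36, 0.36 and 0.37 for these 3 lists.

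Proteasome subunits and their assembly factors were higher in 38 of 46 cases and lower in 1 (median 0.42, length-adjusted 0.40). PSMA2, a ring subunit of the catalytic core, was at 5.09, 5.52 and 5.44 CPM in DMSO and 9.27, 9.27 and 9.13 CPM at 8 h, with no overlap. Its counts were low in every library. How reads at shared or overlapping sequence were counted is not given, so the level of PSMA2 is uncertain. PSMA1 (0.77 ± 0.09), PSMA3 (0.75 ± 0.06) and PSMC3 (0.66 ± 0.06), an ATPase of the cap, were also among the larger rises. The interferon-inducible catalytic subunit PSMB8 (0.05 ± 0.06) did not pass. Heat shock chaperones were higher in 18 of 26 cases with none lower. HSPE1, the mitochondrial chaperonin cap, rose from 53.2, 53.95 and 50.6 to 125, 88.1 and 108 CPM, and HSPA1A, the stress-inducible HSP70, by 0.84 ± 0.06. RNA processing moved alike: 17 of 20 core spliceosome genes were higher and none lower (median 0.44), with SNRPF at 0.80 ± 0.07, and 11 of 14 SR splicing factors were higher, SRSF2 most (0.95 ± 0.06). Of 12 RNA polymerase II subunits 9 were higher, POLR2I by 0.93 ± 0.09, while the second-largest subunit POLR2B fell by 0.33.

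Genes of the respiratory chain rose in both genomes. All 13 mRNAs of the mitochondrial genome were higher, with a median of 1.18 and a range from 0.91 for MT-ATP8 to 1.34 for MT-CO3. Their sum was 31808 to 36128 CPM in DMSO and 73653 to 82934 CPM at 8 h, so the mitochondrial genome's share of counts went from between 4.001% and 4.48% to between 8.199% and 8.997%. At 24 h their median was 0.61 against the same DMSO libraries. Of 72 nuclear genes for complexes I to V, 64 were higher and none lower (median 0.40, length-adjusted 0.32). ATP5MC1, which encodes the ring subunit of the ATP synthase, was at 60.6, 56.7 and 63.00 CPM in DMSO and 105, 86.2 and 95.2 CPM at 8 h, highest in library A, and NDUFA11, of complex I, rose by 0.85 ± 0.13. ATP5F1B, the catalytic beta subunit of the synthase and one of the most abundant members, was at 0.12 and did not pass. The citric acid cycle was split, with 9 of 22 genes higher and 6 lower: fumarase FH rose (0.47 ± 0.05) and the pyruvate carboxylase PC fell (-0.32 ± 0.05). Its median of 0.04 became -0.12 with library totals.

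**Figure D3:**
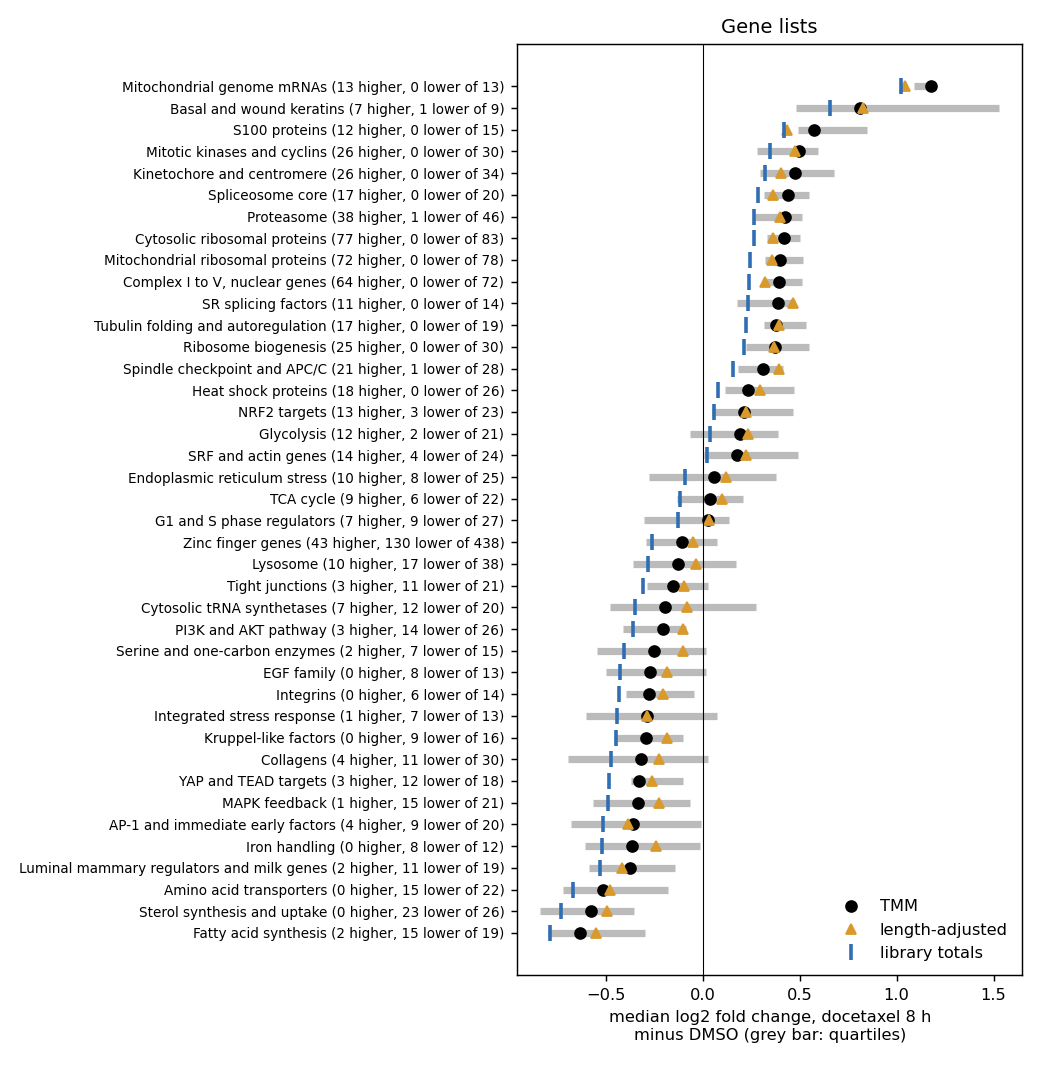
Median log2 fold change (horizontal axis, black circles) of the members of each list that passed the filter, with grey bars from the lower to the upper quartile, triangles for the length-adjusted fit and ticks for library totals; row labels give how many members were called. Translation, respiration and mitosis lists lie to the right of 0, lipid synthesis and amino acid transport to the left.

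Docetaxel binds the products of the beta-tubulin genes, and tubulin genes moved both ways. Of 17 tubulins tested, 7 were higher and 2 lower. TUBB4B, a beta isotype, was at 285, 294 and 288 CPM in DMSO and 629, 547 and 579 CPM at 8 h (1.02 ± 0.05), and TUBB6 rose by 0.95 ± 0.05. The abundant alpha isotype TUBA1B was at 567, 597 and 557 CPM in DMSO and 588, 618 and 622 CPM at 8 h, groups that overlapped, and did not pass (0.09 ± 0.06). TUBA4A and TUBB were higher (0.57 ± 0.13 and 0.56 ± 0.06), while the alpha isotype TUBA1A fell from 45.4, 49.1 and 45.2 to 34.6, 34.8 and 32.1 CPM (-0.46 ± 0.06). Tubulin isotypes are near-identical in sequence, so reads may have been divided among them. Chaperones that fold tubulin, the CCT ring, the prefoldins and the tubulin cofactors, were higher in 17 of 18 cases (median 0.39). PFDN4 (0.83 ± 0.08) and PFDN2 (0.79 ± 0.06) led them, and TTC5, the factor that recognises nascent tubulin and starts the decay of its mRNA, was at 19.3, 21.3 and 20.4 CPM in DMSO and 18.6, 19.4 and 18.6 CPM at 8 h and did not pass. At 24 h, against the same DMSO libraries, TUBB4B stood at 0.54, TUBB6 at 0.80 and TUBA1A at 0.48.

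Of 30 mitotic kinases, cyclins and exit genes 26 were higher and none lower, with a median of 0.50. PLK1, the kinase of spindle assembly and mitotic exit, was at 172, 173 and 169 CPM in DMSO and 292, 269 and 281 CPM at 8 h (0.71 ± 0.05, adjusted p = 5.8e-11 by edgeR's quasi-likelihood test). CDK1, the kinase that drives mitotic entry, was at 155, 161 and 153 CPM in DMSO and 261, 239 and 252 CPM at 8 h (0.68 ± 0.05). In both, every docetaxel library lay above every DMSO library. In bulk RNA, more cells in mitosis and more of these mRNAs per cell cannot be told apart. AURKB, the kinase of the chromosomal passenger complex, rose by 0.91 ± 0.06, AURKA by 0.74 ± 0.05 and PKMYT1, an inhibitor of CDK1, by 0.77 ± 0.05. WEE1, a further CDK1 inhibitor, was at 0.12 and did not pass, nor did the cytokinesis factor ECT2 (0.06). Kinetochore and centromere genes were higher in 26 of 34 cases with none lower (median 0.48). The outer kinetochore complex that grips microtubules was prominent: SPC25 was at 24.6, 26.4 and 27.01 CPM in DMSO and 54.2, 48.3 and 51.2 CPM at 8 h (0.98 ± 0.07), NDC80 rose by 0.87 ± 0.05 and SPC24 by 0.80 ± 0.06. Its anchor MIS12 (0.05 ± 0.08) did not pass. In the checkpoint and anaphase-promoting complex 21 of 28 genes were higher, UBE2C (0.93 ± 0.06) and UBE2S (0.78 ± 0.06), the complex's ubiquitin-conjugating enzymes, most, while its scaffold ANAPC1 fell by 0.38. After the length adjustment the medians were 0.48, 0.41 and 0.39. At 24 h, against the same DMSO libraries, 9 of the 30 genes of the mitotic kinase list were higher and 10 lower, where 20.2% of all genes were called higher and 22.7% lower.

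Promoters of the mitotic genes are shown for the motifs known from G2 and M genes, the cell cycle homology region and the CCAAT box. Sequences are from the RefSeq promoter table (GRCh38.p14), 250 bases before to 50 after the first listed start, 5′ to 3′ on the gene's strand, and 11576 tested genes had 1. Motifs were searched on both strands. TTTGAA, the core of the homology region, was found in 12 of 22 promoters of the mitotic kinase list, 12 of 28 of the kinetochore list and 1147 of all 11576 (9.91%). CCAAT was found in 17 of 22, 17 of 28 and 4175 of all (36.1%). Every promoter printed here and below was picked from called list members whose window held a given motif. For the mitotic kinase and kinetochore lists that motif was TTTGAA, so its presence in the windows shown was fixed by the choice. Capitals mark TTTGAA and CCAAT. PLK1 (chr16:23678639-23678938, plus strand) has TTTGAA starting 29 bases before the start and CCAAT 73 bases before it. CDK1 (chr10:60778081-60778380, plus strand) has them at -161 and -150 relative to the start, and SPC25 (chr2:168890381-168890680, minus strand) has 2 of each.
PLK1: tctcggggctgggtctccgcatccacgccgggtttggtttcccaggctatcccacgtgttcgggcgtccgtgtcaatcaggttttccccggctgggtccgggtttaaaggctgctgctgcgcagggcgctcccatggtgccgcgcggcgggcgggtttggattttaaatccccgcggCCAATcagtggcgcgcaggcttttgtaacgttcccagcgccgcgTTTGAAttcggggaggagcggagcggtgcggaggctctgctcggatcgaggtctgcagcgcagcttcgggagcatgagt
CDK1: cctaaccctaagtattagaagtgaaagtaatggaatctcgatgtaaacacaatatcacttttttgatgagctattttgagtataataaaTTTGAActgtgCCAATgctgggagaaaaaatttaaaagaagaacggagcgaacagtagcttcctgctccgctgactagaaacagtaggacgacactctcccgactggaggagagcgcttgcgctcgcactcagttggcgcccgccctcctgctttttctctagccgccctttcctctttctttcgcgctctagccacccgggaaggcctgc
SPC25: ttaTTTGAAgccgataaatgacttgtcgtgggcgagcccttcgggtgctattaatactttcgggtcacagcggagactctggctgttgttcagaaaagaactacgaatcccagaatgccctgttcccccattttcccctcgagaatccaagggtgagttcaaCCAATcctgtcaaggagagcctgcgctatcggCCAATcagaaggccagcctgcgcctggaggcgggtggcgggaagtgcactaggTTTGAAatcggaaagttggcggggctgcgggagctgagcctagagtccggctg
The matches are descriptions of these windows only.

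Motor proteins of the kinesin family divided by their role. All 13 mitotic kinesins tested were higher (median 0.52, length-adjusted 0.57), while of 30 transport and other kinesins 3 were higher and 12 lower (median -0.23, length-adjusted -0.15). KIFC1, a minus-end motor that clusters spindle poles, was at 146, 144 and 149.9 CPM in DMSO and 247, 230.1 and 227 CPM at 8 h. KIF22, a chromosome arm motor, rose by 0.68 ± 0.05 and KIF20A, needed in cytokinesis, by 0.64 ± 0.04. Among the transport motors KIF21B was at 24.97, 27.3 and 28.1 CPM in DMSO and 12.8, 15.2 and 12.2 CPM at 8 h (-1.00 ± 0.09), KIF3C fell by 0.87 and KIF13B by 0.62. The conventional kinesin heavy chain KIF5B (-0.04 ± 0.07) did not pass. In this family the mitotic members had a 24 h median of -0.07 and the transport members one of -0.27. Of 29 microtubule-associated proteins 8 were higher (27.6%) and 9 lower (31.0%), near the shares over all genes, 22.5% and 24.8%. After the length adjustment 9 were higher and 5 lower. Among the 12 that stabilise or bind the microtubule lattice 2 were higher (16.7%) and 4 lower (33.3%), with MAP1B down by 0.79 and MAPT, the tau gene, by 0.74. The spindle assembly factor TPX2 (0.54 ± 0.05) and the tubulin-sequestering stathmin, STMN1 (0.49 ± 0.06), outside that group, rose.

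**Figure D4:**
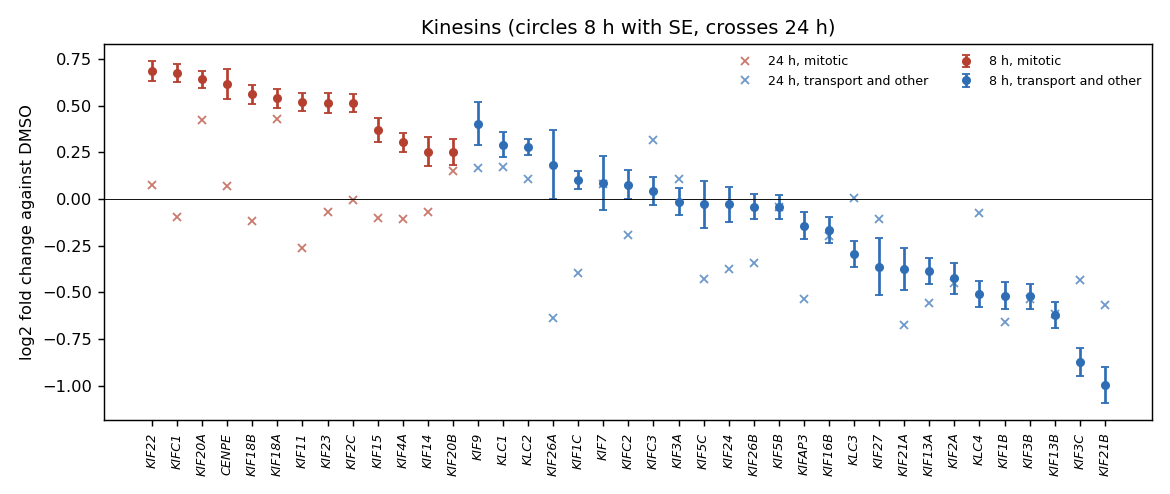
Log2 fold change against DMSO (vertical axis) of each kinesin with at least 1 CPM in either group, at 8 h (circles with standard errors) and at 24 h (crosses), in mitotic and in transport and other members. All mitotic members lie above 0 at 8 h, and the transport members reach down to -1.00 for KIF21B.

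Cell cycle genes outside mitosis did not move as a block. The counts below stand beside 22.5% higher and 24.8% lower over all genes. Of 27 G1 and S regulators 7 were higher and 9 lower, and the list's median of 0.03 became -0.13 with library totals. The inhibitor CDKN2D rose from 43.3, 42.00 and 46.1 to 83.4, 75.1 and 76.5 CPM. CDK6, a kinase of the G1 restriction point, fell by 0.66, and the pocket protein RBL2 by 0.54. Of 20 p53 target genes 3 were higher and 10 lower, with BTG2 at -1.00 ± 0.14 and TP53INP1 at -1.00 ± 0.08, and GADD45A at 0.47 ± 0.05 in the other direction. In homologous recombination 11 of 29 genes were higher and 3 lower, and RAD50 fell by 0.80. The recombination list's median of 0.08 became -0.08 with library totals.

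Genes for amino acid import and synthesis were called lower more often than higher. No amino acid transporter of 22 tested was called higher and 15 were lower (median -0.51). After the length adjustment 2 were higher and 12 lower (median -0.48). SLC6A14, a broad importer of neutral and basic amino acids, was at 29.4, 32.3 and 31.9 CPM in DMSO and 10.1, 9.33 and 9.95 CPM at 8 h (-1.67 ± 0.07). SLC1A4, which carries serine and alanine, fell by 0.84, and SLC38A1, a glutamine importer, from 288, 319.8 and 301 to 170.1, 200.3 and 190.1 CPM (-0.70 ± 0.06). The abundant leucine exchanger SLC7A5 and its partner SLC3A2 did not pass (-0.03 ± 0.05 and 0.06 ± 0.05). Serine and one-carbon enzymes were higher in 2 and lower in 7 of 15 cases. The 3 enzymes of serine synthesis fell, PHGDH by 0.74, PSAT1 by 0.68 and PSPH by 0.50, and ALDH1L2, which oxidises mitochondrial folate, from 67.7, 71.7 and 67.7 to 24.4, 27.1 and 26.1 CPM. Asparagine synthetase ASNS was at 4.72, 4.63 and 4.17 CPM in DMSO and 2.34, 1.76 and 2.496 CPM at 8 h (-1.04 ± 0.14, adjusted p = 2.8e-06 by edgeR's quasi-likelihood test). Counts of ASNS were low in every library, and how shared or overlapping reads were counted is not given, so its level is uncertain. CTH, which makes cysteine from cystathionine, fell by 0.91. PCK2, the mitochondrial carboxykinase, fell by 0.95.

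Genes for the enzymes that charge tRNAs moved both ways. Of 20 cytosolic synthetases 7 were higher and 12 lower (median -0.20, length-adjusted -0.08). The tryptophan enzyme WARS was at 167, 164 and 165 CPM in DMSO and 96.99, 91.9 and 91.1 CPM at 8 h, and the isoleucine enzyme IARS fell by 0.74. Both chains of the phenylalanine enzyme rose, FARSB by 0.58 ± 0.05 and FARSA by 0.53 ± 0.05. Mitochondrial synthetases were higher in 6 and lower in 1 of 17 cases, with a median of 0.07 that became -0.09 with library totals. Of 13 tested genes of the integrated stress response, the programme run by the factor ATF4, 1 was higher and 7 lower. TRIB3 fell by 0.80, NUPR1 by 0.77 and DDIT4 by 0.65, ATF5 rose (0.46 ± 0.06), and the mRNA of ATF4 itself was at 929, 896 and 913 CPM in DMSO and 1096, 933 and 959 CPM at 8 h and did not pass.

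The composite element read by ATF4, TGATGNAAN on either strand, was found in 4 of 19 promoters of the transporter list, 2 of 7 of the asparagine, proline and cysteine list and 206 of all 11576 (1.78%). It is shown in capitals for ASNS (chr7:97872359-97872658, minus strand), 68 bases before the start, and SLC38A1 (chr12:46266467-46266766, minus strand), 4 bases before it.
ASNS: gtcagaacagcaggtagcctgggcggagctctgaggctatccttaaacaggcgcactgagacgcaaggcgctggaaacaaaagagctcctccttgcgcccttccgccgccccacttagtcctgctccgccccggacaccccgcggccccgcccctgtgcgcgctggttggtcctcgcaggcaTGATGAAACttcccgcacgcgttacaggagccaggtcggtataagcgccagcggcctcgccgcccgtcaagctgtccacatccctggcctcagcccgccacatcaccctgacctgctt
SLC38A1: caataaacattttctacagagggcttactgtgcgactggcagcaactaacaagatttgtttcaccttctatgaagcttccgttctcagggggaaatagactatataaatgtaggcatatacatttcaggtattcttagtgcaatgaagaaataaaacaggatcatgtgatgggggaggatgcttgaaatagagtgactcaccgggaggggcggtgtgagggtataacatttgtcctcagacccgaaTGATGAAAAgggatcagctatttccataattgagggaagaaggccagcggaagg

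Genes downstream of growth factor receptors fell more often than they rose. Among 21 feedback genes of the MAPK pathway 1 was higher and 15 lower (median -0.34, length-adjusted -0.22). ETV1, a transcription factor induced by ERK, was at 5.34, 6.98 and 5.91 CPM in DMSO and 1.51, 1.98 and 2.39 CPM at 8 h (-1.64 ± 0.15), and the phosphatase DUSP1, which switches off MAP kinases, at 60.2, 53.1 and 57.4 CPM in DMSO and 27.8, 29.4 and 20.1 CPM at 8 h (-1.14 ± 0.11). DUSP4 fell by 0.86 and ETV5 by 0.86. At 24 h, against the same DMSO libraries, 8 of the list were higher and 4 lower (20.2% and 22.7% of all genes), with DUSP1 at -0.37 and ETV1 at -0.35. Of 20 AP-1 and immediate early genes 4 were higher and 9 lower. FOSL1 went from 8.73, 8.41 and 8.92 to 21.00, 18.7 and 18.5 CPM (1.16 ± 0.08), while FOS went from 260.4, 219 and 264 to 150.2, 141 and 97.4 CPM (-0.93 ± 0.10) and FOSB fell by 1.13. All 3 encode FOS-type subunits of AP-1, and in each the groups did not overlap. JUND (0.01 ± 0.06) did not pass.

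Genes of the EGF receptors were lower as well, while most of their ligands were not called. Of 13 ligands, receptors and inhibitors tested 8 were lower and none higher. These were all 6 receptors and inhibitors (median -0.40) and 2 of 7 ligands (28.6%, median 0.02), where 24.8% of all genes were lower. After the length adjustment 4 receptors or inhibitors and 2 ligands were lower. The receptor ERBB3 fell from 66.9, 69.1 and 65.2 to 41.4, 44.3 and 42.3 CPM, and LRIG1, which promotes receptor degradation, by 0.82. EGFR, amplified in this line, was at 3619.5, 4112 and 3759 CPM in DMSO and 2643, 3438 and 3207 CPM at 8 h (-0.31 ± 0.08), but at -0.11 in the length-adjusted fit (adjusted p = 0.114 by edgeR's quasi-likelihood test). Among ligands HBEGF fell (-0.41 ± 0.11), standing at 0.91 at 24 h against the same DMSO libraries, and AREG (0.02 ± 0.25) did not pass. Of 26 PI3K pathway genes 3 were higher and 14 lower: DEPTOR, an inhibitor of mTOR, fell by 1.08, PIK3IP1, an inhibitor of PI3K, by 1.03 and the adaptor IRS1 by 0.80, and the small GTPase RHEB, the activator of mTORC1, was among the 3 that rose (0.46 ± 0.05). Kruppel-like factors included 9 falls and no rise among 16, KLF11 from 36.02, 39.4 and 34.5 to 22.96, 24.5 and 24.4 CPM and KLF13 by 0.56. Targets of YAP and TEAD were lower in 12 of 18 cases and higher in 3. CTGF was at 196, 178 and 164 CPM in DMSO and 105, 117 and 103 CPM at 8 h, ANKRD1 fell by 1.06 and stood at 0.93 at 24 h, and F3, tissue factor, rose by 0.82 ± 0.08. Actin genes went the other way, 14 of 24 higher and 4 lower, with beta-actin ACTB at 6406, 6829.8 and 6508 CPM in DMSO and 10803, 10200.1 and 10834 CPM at 8 h and cofilin CFL1 up by 0.62 ± 0.06.

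Sterol genes were lower almost throughout. Of 26 sterol genes 23 were lower and none higher (median -0.58, library totals -0.73, length-adjusted -0.49). The demethylase CYP51A1 was at 15.1, 15.7 and 15.6 CPM in DMSO and 4.35, 6.49 and 5.31 CPM at 8 h, and the cyclase LSS at 454, 463 and 462 CPM in DMSO and 212, 212 and 198 CPM at 8 h. Beyond the synthetic pathways, the phosphatidate phosphatase LPIN1 fell from 71.4, 73.1 and 78.1 to 31.99, 32.8 and 28.9 CPM and the triglyceride hydrolase PNPLA3 from 13.6, 15.4 and 14.2 to 5.45, 5.72 and 5.88 CPM. The cholesterol exporter ABCA1 fell as well (-0.99 ± 0.26). At 24 h, against the same DMSO libraries, the sterol list had 8 genes higher and 12 lower (20.2% and 22.7% of all genes). The promoter of HMGCS1, the enzyme at the pathway's entry (403, 418 and 399 CPM in DMSO and 157, 175 and 164 CPM at 8 h), is shown (chr5:43313363-43313662, minus strand). Capitals mark CCAAT on the reverse strand (printed as ATTGG), at -155 and -100 relative to the start. CCAAT was in 16 of 19 promoters of the list, while the sterol response element searched as TCACNCCAC was in 1 of 19 and in 125 of all 11576 (1.08%).
HMGCS1: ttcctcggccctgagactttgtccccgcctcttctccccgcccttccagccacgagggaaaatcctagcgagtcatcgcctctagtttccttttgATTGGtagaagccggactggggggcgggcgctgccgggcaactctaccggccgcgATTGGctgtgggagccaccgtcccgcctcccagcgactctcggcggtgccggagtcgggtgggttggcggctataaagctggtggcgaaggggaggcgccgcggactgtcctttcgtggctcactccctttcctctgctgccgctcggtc

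Of 11 genes of the aryl hydrocarbon receptor battery, which clears planar foreign compounds, 7 were higher and 2 lower. CYP1A1, the receptor's classic target, was at 1.45, 1.21 and 1.09 CPM in DMSO, 32.2, 32.9 and 37.01 CPM at 8 h and 2.28 ± 0.116 CPM (SD, n = 3) at 24 h. ALDH3A1, an aldehyde dehydrogenase of the same battery, was at 1.66, 2.16 and 2.04 CPM in DMSO and 4.44, 4.88 and 3.81 CPM at 8 h, and NQO1, a quinone reductase, rose by 0.63 ± 0.06. Of 6 xenobiotic metabolism targets 4 passed the filter, and these were called higher. The feedback genes TIPARP (-0.18 ± 0.07) and AHRR (0.00 ± 0.12), which repress the receptor, did not pass the test. Among the receptor's partners the coactivator NCOA7 fell by 0.87. The receptor AHR itself was higher by 0.15 ± 0.05, but at 0.00 with library totals. Without docetaxel library B it was at 0.12 and did not pass (adjusted p = 0.074 by edgeR's quasi-likelihood test). Among 23 NRF2 targets 13 were higher and 3 lower. OSGIN1 went from 12.4, 12.8 and 9.96 to 27.96, 21.8 and 22.2 CPM, thioredoxin TXN rose by 0.80 ± 0.07 and GCLM, of glutathione synthesis, by 0.78 ± 0.06, whereas the cystine importer SLC7A11 fell by 0.69. GCGTG, the core of the xenobiotic response element, was in 7 of 8 promoters of the receptor's list, 16 of 19 of the sterol list and 5717 of all 11576 (49.4%). It is shown in capitals for CYP1A1 (chr15:74725479-74725778, minus strand), 57 bases before the start.
CYP1A1: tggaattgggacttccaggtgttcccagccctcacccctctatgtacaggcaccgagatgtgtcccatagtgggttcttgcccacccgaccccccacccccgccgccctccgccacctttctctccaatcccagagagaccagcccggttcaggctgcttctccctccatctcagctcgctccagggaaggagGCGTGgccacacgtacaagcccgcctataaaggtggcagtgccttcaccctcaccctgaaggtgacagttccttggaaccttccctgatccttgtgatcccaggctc

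Genes of epithelial structure moved differently by compartment. Of 9 basal and wound keratins 7 were higher and 1 lower (median 0.81). KRT5, the basal layer's main type II keratin, was at 1606, 1661 and 1603 CPM in DMSO and 2903, 2783 and 2863 CPM at 8 h, and KRT6B, a keratin of wounded skin, at 140.0, 141 and 145 CPM in DMSO and 305, 288 and 316 CPM at 8 h. The genes for KRT6A, KRT6B and KRT6C are near copies whose reads may be shared. Simple and hair keratins were higher in 6 of 12 cases with none lower, KRT19 by 0.41 ± 0.06. Of 15 S100 calcium-binding proteins 12 were higher and none lower (median 0.57, length-adjusted 0.43). S100A3 was at 9.49, 9.33 and 9.01 CPM in DMSO and 25.8, 21.2 and 24.9 CPM at 8 h and S100A2 at 157, 151 and 155 CPM in DMSO and 328, 251 and 280.3 CPM at 8 h. Library A of docetaxel was the highest of the 3 in both. In the cornified envelope list 6 of 21 genes were higher and 4 lower, and its median of 0.03 became -0.13 with library totals. The antiprotease PI3 was at 126, 113 and 124 CPM in DMSO and 260.2, 209.7 and 234 CPM at 8 h. The serpin SERPINB3, 0.161, 0.159 and 0.295 CPM in DMSO and 1.69, 2.38 and 1.96 CPM at 8 h, started from near 0 and cannot be told apart from its near copy SERPINB4. TP63, the master factor of basal epithelium, fell by 0.41.

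Adhesion receptors, matrix and junction genes were called lower more often than higher. The lower shares were 42.9% of integrins, 36.7% of collagens and 52.4% of tight junction genes. Over all genes 24.8% were lower and 22.5% higher. Of 14 integrins 6 were lower and none higher. ITGAV fell from 137, 151 and 132 to 88.2, 115 and 101 CPM and ITGA2, a collagen receptor, by 0.49. In the hemidesmosome, which ties basal cells to the basement membrane, the parts diverged: the integrin chains ITGA6 (152, 167 and 157 to 92.2, 112 and 108 CPM) and ITGB4 (-0.47 ± 0.05) fell, while the laminin chain LAMB3 (0.44 ± 0.06) rose. At 24 h, against the same DMSO libraries, LAMB3 stood at -0.35. Collagen genes were higher in 4 and lower in 11 of 30 cases, with COL4A5, a basement membrane chain, at 27.1, 28.1 and 30.1 CPM in DMSO and 15.2, 18.3 and 14.8 CPM at 8 h. Of 21 tight junction genes 3 were higher and 11 lower, among them CLDN1, a claudin, which fell by 0.64. Claudin 3 rose (0.33 ± 0.06). After the length adjustment 4 integrins, 9 collagens and 9 tight junction genes were called lower and 1, 4 and 4 higher. That fit called 3806 lower and 4337 higher of all 17695 genes with an exon length. MMP7, a secreted protease, rose from 12.8, 12.1 and 14.5 to 42.6, 40.9 and 43.5 CPM, and TIMP1, a protease inhibitor, by 0.70 ± 0.08, while MMP14, the membrane protease, fell by 0.68.

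Luminal mammary regulators fell in 7 of 12 cases and rose in 2, and secretory genes of luminal cells fell in 4 of 7 with none higher. EHF, an ETS factor of glandular epithelium, was at 139, 148 and 141 CPM in DMSO and 51.3, 71.5 and 64.2 CPM at 8 h (-1.19 ± 0.10), and the regulator XBP1 fell by 0.53. The mucin MUC15, of the secretory group, fell by 0.72. The transcription factor TFAP2C, an abundant regulator, was at 0.04 and did not pass. Iron genes were lower in 8 of 12 cases with none higher. TF, the gene of transferrin (chr3:133745956-133796640 in GENCODE release 29, GRCh38), fell from 22.2, 19.1 and 20.5 to 4.65, 5.16 and 4.14 CPM (-2.14 ± 0.10), and ceruloplasmin, CP, fell by 0.72. Ferritin heavy chain FTH1 (2456, 2664 and 2347 CPM in DMSO and 2532, 2383 and 2436 CPM at 8 h) did not pass. At 24 h TF stood at -0.56 against the same DMSO libraries. Notch pathway genes were higher in 6 (26.1%) and lower in 9 (39.1%) of 23 cases. The target HES2 rose (0.71 ± 0.08), and the receptor NOTCH2 (151, 175 and 156 to 87.8, 115 and 109.8 CPM) and the coactivator MAML2 (-0.67 ± 0.07) fell. Lysosomal genes were higher in 10 (26.3%) and lower in 17 (44.7%) of 38 cases, with GLA at 0.70 ± 0.07 and LIPA at -0.60 ± 0.06. Of 44 replication-dependent histone genes 2 were higher and 16 lower, and since their mRNAs mostly lack a poly(A) tail, the poly(A) selection limits what these counts show. Zinc finger genes, 438 in number, were higher in 43 (9.82%) and lower in 130 cases (29.7%). Over all genes the shares were 22.5% higher and 24.8% lower. After the length adjustment 64 zinc finger genes were higher and 105 lower.

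**Figure D5:**
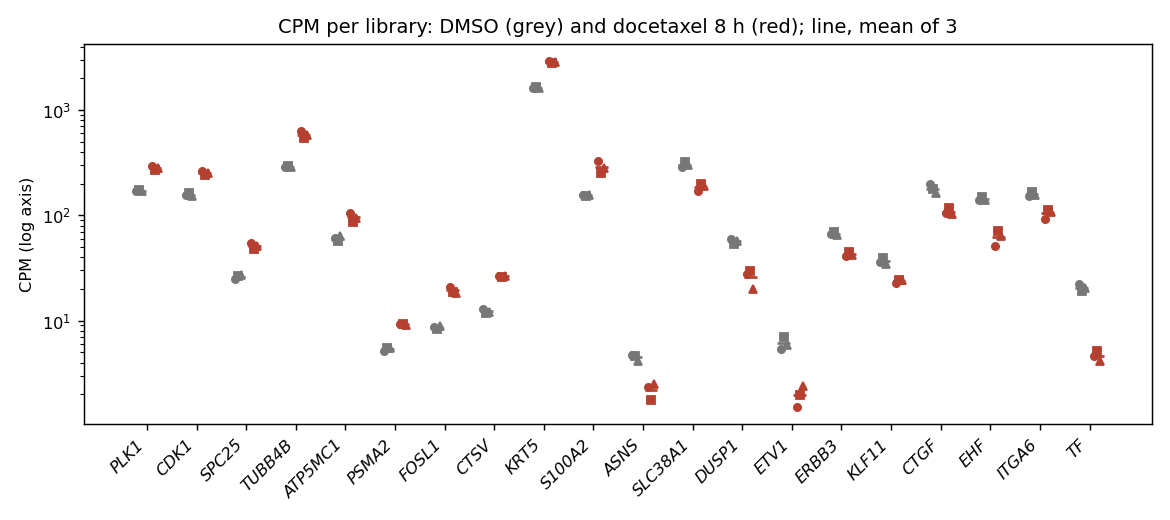
CPM on a log axis of 20 genes named in the text (horizontal axis), with 1 symbol per library (circle A, square B, triangle C), DMSO in grey and docetaxel 8 h in red, and a line at the mean of 3. The groups do not overlap in any of the 20 genes shown, which were picked from those that were called.

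Protein-coding genes without overlap and with 5 CPM or more in the higher group were ordered by fold, and the following come from below the top 8 ranks. Outside the keratin, S100 and mitochondrial genes given above, TMEM156 (1.11 ± 0.10), the helicase PIF1 (13.4, 10.3 and 11.97 to 27.4, 27.1 and 22.5 CPM), the placental alkaline phosphatase ALPP (209, 237 and 200.1 to 472, 447 and 468 CPM, with near copies in the genome), the cysteine protease CTSV (12.9, 11.7 and 12.2 to 26.3, 26.05 and 26.4 CPM), the peptide receptor VIPR1 (1.07 ± 0.06) and the growth factor ARTN (0.99 ± 0.06) rose. GPR89B was uneven, at 6.54, 7.17 and 5.44 CPM in DMSO and 13.4, 23.9 and 9.91 CPM at 8 h, and has a near copy. The falls included TRIL (19.99, 21.3 and 21.5 to 6.96, 8.003 and 7.88 CPM), the lactate receptor HCAR1 (-1.34 ± 0.09), the retinoid-responsive RARRES3 (59.9, 56.8 and 60.7 to 28.5, 22.4 and 22.5 CPM), TP53INP2 (51.2, 55.9 and 51.1 to 18.5, 19.1 and 19.8 CPM), the lipid transporter ABCA12 (-1.49 ± 0.15), selenoprotein P, SELENOP (-1.43 ± 0.17), and the glucose cotransporter SLC5A1 (-1.27 ± 0.08).

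Genes at or below 1 CPM in 1 group and above it in the other rest on small counts, and their levels are given without a fold. IGFL2 went from 0.207, 0.1903 and 0.355 to 2.52, 2.101 and 2.35 CPM and PTHLH, parathyroid hormone-related protein, from 0.599, 0.571 and 0.473 to 1.39, 1.36 and 1.93 CPM. H19 was uneven: 0.645, 0.539 and 0.355 CPM in DMSO and 0.7998, 0.865 and 5.45 CPM at 8 h, and without docetaxel library C its log2 fold change was 0.68 (adjusted p = 0.155 by edgeR's quasi-likelihood test). MTCO3P12, from 0.5297, 0.444 and 0.295 to 2.400, 1.95 and 1.53 CPM, is a nuclear copy of a mitochondrial gene and shares its sequence. KCNT2, a potassium channel, went from 1.04, 1.11 and 1.596 to 0.0889, 0.402 and 0.143 CPM, GPR55 from 1.45, 1.55 and 1.77 to 0.415, 0.371 and 0.285 CPM and the B-cell tetraspanin CD37 from 2.395, 1.903 and 2.16 to 0.474, 0.803 and 0.285 CPM. At the other end of the scale, in the highest decile, falls outside lipid synthesis included TSC22D3, a glucocorticoid-induced gene (189.7, 178 and 184 to 98.8, 91.03 and 86.8 CPM), CLIC4 (-0.95 ± 0.06), the membrane protease MME (-0.87 ± 0.06), SOX4 (-0.87 ± 0.06) and PEG10 (943, 1030.0 and 978 to 519, 575 and 536 CPM).

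Some lists had small medians and members called in both directions. Over all genes 22.5% were higher and 24.8% lower. The endoplasmic reticulum stress list had 10 genes higher and 8 lower of 25: the secreted MANF rose (0.68 ± 0.06) and HERPUD1 fell (-0.60 ± 0.05). Its median of 0.06 became -0.09 with library totals. Hypoxia-inducible genes were higher in 9 and lower in 5 of 23 cases, and their median of 0.05 became -0.10. Of 19 clock genes 6 were higher and 4 lower, with ARNTL, the positive limb's core factor, at -0.97 ± 0.08, and their median of 0.01 became -0.14 with library totals. Autophagy genes were higher in 9 and lower in 8 of 31 cases, and their median of -0.02 became 0.06 after the length adjustment. With library totals 3 autophagy genes were called higher and 17 lower (median -0.18). In the BCL2 family 2 of 15 genes were higher and 5 lower, with BAX at 0.43 ± 0.06, BMF at -0.67 ± 0.08 and MCL1, the labile survival factor, at -0.28 ± 0.04. The drug efflux pump ABCB1, which exports taxanes, was at 1.59, 1.93 and 2.07 CPM in DMSO and 0.918, 1.02 and 1.11 CPM at 8 h (-0.87 ± 0.19).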

How the data were processed

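The authors deposited counts of reads per gene for each library, whole numbers listed by gene symbol, and these were used as deposited. The submitters' processing notes name fastp, HISAT2 2.0.5, DESeq2 and hg38. What counted the reads, on which annotation and strand, is not given in the sources used here. The protocol allows directional or non-directional libraries. A table of the whole series, holding counts divided by size factors, was not used. The 1745 symbols listed more than once were kept as separate entries, and 27 date-like symbols, damaged gene names, took up to 0.204% of the counts in a library.

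Genes were kept by filterByExpr (minimum count 10), which left 17780 of 58735. The fit in edgeR 4.0.16 (R 4.3.3) had 1 mean for each of the 4 groups, TMM scaling, 12 libraries and 8 residual degrees of freedom (biological coefficient of variation 5.59%), with a two-sided quasi-likelihood test and p-values adjusted by Benjamini-Hochberg over all genes. The procedure was tested on simulated data. Standard errors were derived from the F statistic (the absolute log2 fold change over its square root) and are approximate. Depth was 30205713 to 41512254 counts, which gave a median standard error of 0.534 in the lowest decile of genes by level and 0.0515 in the highest. Lengths, gene types and positions come from GENCODE release 29 (GRCh38) and promoters from RefSeq (GRCh38.p14), both matched by symbol.

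The genes, lists and comparison were chosen with earlier results of these data known, so no list was tested: counts and medians are given for members that passed the filter. Named genes are the 40 largest protein-coding rises and falls without overlap, at 5 CPM or more in the higher group, 10 of other types, 15 of the highest decile, 15 crossing 1 CPM, and, per list, up to 6 that passed and 2 that did not. Other list members were named for their role, among them TUBA1A, ANAPC1, AHR and POLR2B, after their values were seen. Alternatives were 6 libraries only, DESeq2 1.42.0, its size factors in edgeR (RLE), library totals, other filters, the mitochondrial genome left out, a replicate block, each library left out and, chosen after seeing the data, an offset by exon length. DESeq2's interval test was run with the same fold of 1.5.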

Additional observations from a re-analysis of the deposited data

Results flagged for a closer look

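Genes were searched for calls in opposite directions at 8 h and at 24 h of docetaxel against the same 3 DMSO libraries. The search covered only the 40 largest protein-coding rises and falls without overlap and the 15 largest each way of the highest decile. Other genes that changed sign between the times were outside it or did not meet its rule. That rule also asked for a called difference between the times by edgeR's quasi-likelihood test. CYP1B1, VIPR1 and HIST1H2AC met it. The p-values below were part of the rule and are no further support. CYP1B1, a monooxygenase of the aryl hydrocarbon receptor battery, was at 106 ± 5.71 CPM (SD, n = 3) in DMSO, 320.3 ± 23.8 at 8 h and 84.2 ± 3.45 at 24 h. Its 24 h minus 8 h difference was -1.93 on the log2 scale, with an adjusted p of 7.4e-17 by edgeR. VIPR1, a peptide hormone receptor, was at 30.4 ± 1.74 CPM in DMSO, 63.99 ± 1.76 at 8 h and 26.7 ± 0.894 at 24 h, a difference of -1.26 on the log2 scale (adjusted p = 2.0e-13 by edgeR). The histone gene HIST1H2AC went the other way, at 45.5 ± 1.02 CPM in DMSO, 17.7 ± 1.005 at 8 h and 104 ± 4.59 at 24 h, a difference of 2.56 on the log2 scale (adjusted p = 5.7e-18 by edgeR). In all 3 genes the libraries of the 2 times did not overlap, which the rule that picked them made likely.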

How the results depend on the processing

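No gene called in the reported fit was called in the opposite direction in any alternative run. With library totals the counts became 2288 higher and 6784 lower, 149 and 729 at least 2-fold, and 732 past the interval test of 1.5-fold. A minimum mean of 1 CPM left 86 rises and 189 falls of at least 2-fold, since fewer low genes were tested, and DESeq2's interval test called 260 genes against 443. No pairing by the letters A, B and C was seen: deviations of same-letter libraries correlated at 0.03, -0.01 and 0.01. All tested genes weighed equally in these correlations, noisy low ones too, so a weak pairing could be missed. The fit with the letter as a replicate block gave 4021 higher, 4469 lower, 232 and 439 at least 2-fold, and 463 past the interval test. With each library left out in turn, 3545 to 3878 genes were higher, 3552 to 4279 lower, 221 to 278 at least 2-fold higher, 389 to 468 at least 2-fold lower and 337 to 496 past the interval test. Medians changed sign with library totals for the clock (-0.14), cornified (-0.13), homologous recombination (-0.079), endoplasmic reticulum stress (-0.094), G1 and S (-0.13), hypoxia (-0.10), mitochondrial tRNA synthetase (-0.087) and citric acid cycle (-0.12) lists, and JUND moved to -0.15. With the length-adjusted fit they did so for autophagy (0.060), cornified (-0.044) and all kinesins (0.13, also 0.079 at a mean of at least 1 CPM and 0.052 with 6 libraries only). With each library left out in turn, medians ran from -0.024 to 0.085 for stress, negative without DMSO replicate A, from -0.023 to 0.00085 for autophagy, positive without DMSO replicate A or C, and from -0.043 to 0.061 for all kinesins, positive without any 1 DMSO replicate or docetaxel replicate A. Those of the clock (-0.0016 to 0.075) and cornified (-0.00065 to 0.077) lists were negative without docetaxel replicate C, and that of the BCL2 family was 0.0088 without DMSO replicate B. Why these values moved was not tested, beyond the shift that library totals apply to every gene. Depth limits the lowest genes most.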
